A study of Mus musculus with 10 samples.

Results

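The 8 arrays of mice trained by swimming, out of 10 arrays in the series, were used to compare right ventricles of plakoglobin (+/-) mice (n = 4) with those of wildtype mice (n = 4) across all genes. Arrays were chosen by the labelled training and genotype, and no measured value entered the choice. All 8 mice were of strain 129SV and aged 6 months, and each genotype group held 2 males and 2 females. Training was the same for both groups: the mice swam 6 times per week in water of 35 °C, in sessions lengthened from 5 to 90 min. Plakoglobin (+/-) animals are labelled as heterozygous for the plakoglobin gene Jup, with 1 working copy, and the design of the allele is not described in the labels. The 2 remaining arrays came from 1 untrained mouse of each genotype, both females aged 10 months, and they entered no main fit, only an alternative with all 10 arrays. According to the series, plakoglobin (+/-) mice and wildtype littermates were studied in pairs, but the labels do not name the pairs.

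Plakoglobin is a protein of the cardiac intercalated disc, where it links desmosomal cadherins to desmoplakin and also joins adherens junctions. It is a close relative of beta-catenin, the messenger of canonical Wnt signalling, and mutations of desmosomal genes underlie arrhythmogenic right ventricular cardiomyopathy, a disease in which endurance exercise is a known risk factor. Thinning of the right ventricular wall, arrhythmia and replacement of muscle by fat and fibrous tissue mark that disease, so genes of junctions, Wnt signalling, wall stress, fat, matrix and ion handling were described as groups.

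Total RNA of the right ventricle was converted to biotin-labelled cRNA from an oligo(dT) primer and hybridised to Affymetrix mouse arrays, 1 array per mouse. Each value is a MAS5 signal, a linear brightness of a probe set, which is a group of short probes for 1 transcript. Median signals lay between 897.85 and 1149.6 on the 8 arrays, and the number of arrays limits the precision. Differences are given as plakoglobin (+/-) minus wildtype on the log2 scale, adjusted for sex, with a standard error (SE). Where a gene had several probe sets with 1 symbol, the brightest represented it, and 13576 probe sets and 8390 genes were bright enough to be tested. Numbers of mice within a group are only names. Nothing in the labels says more about how the mice were sampled than that they were separate animals.

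Arrays of wildtype mice 1 and 2 and of plakoglobin (+/-) mouse 1 stood apart from the other 5. The control probe sets for GAPDH read the 3' end and the 5' end of 1 transcript, and a high ratio of the 2 signals goes with shortened RNA or incomplete labelling. This ratio was 2.50 in wildtype mouse 1, 17.8 in wildtype mouse 2 and 2.98 in plakoglobin (+/-) mouse 1, against 0.849 to 1.02 on the other 5 arrays. For the beta-actin controls it was 3.05 in wildtype mouse 1 and 2.65 in plakoglobin (+/-) mouse 1 but 1.29 in wildtype mouse 2, against 0.979 to 1.19. The same 3 arrays had the highest scores on the first principal component (36.24% of the variance), at 48.5, 13.6 and 62.3 against -27.5 to -21.2. Wildtype mouse 2 stood apart on the second component (20.65%), at -63.6. Of these 3 high-ratio arrays 2 were wildtype, so results that rest on them are also given without them.

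**Figure D1:**
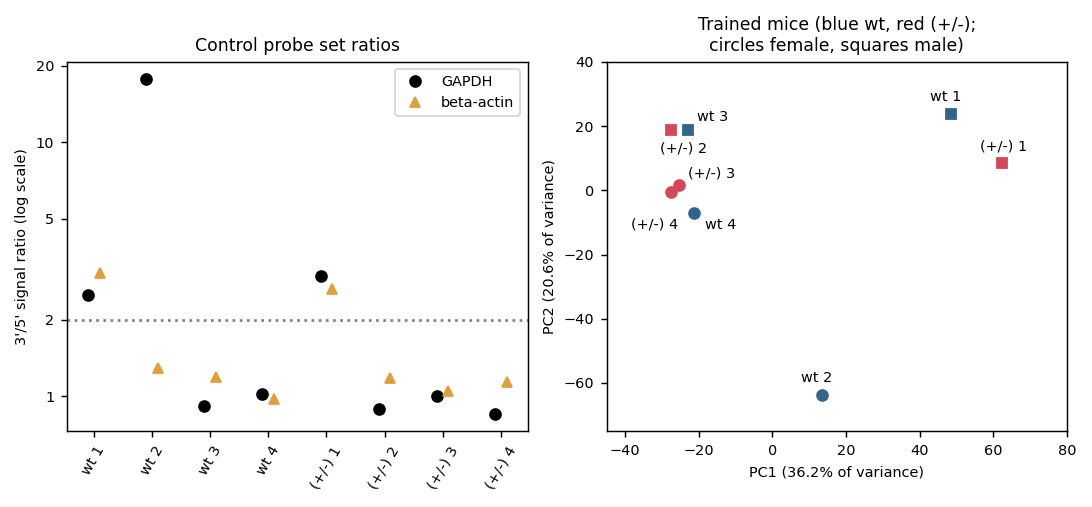
Left, ratio of 3' to 5' signal of the GAPDH (circles) and beta-actin (triangles) control probe sets on each of the 8 trained arrays, on a log scale, with a dotted line at 2. Right, scores of the same arrays on the first 2 principal components of log2 signals. Wildtype mice 1 and 2 and plakoglobin (+/-) mouse 1 lie above the line for GAPDH and to the right of the other 5 arrays.

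Whole profiles did not lie nearer to arrays of the same genotype than to arrays of the other. The mean distance between 2 arrays (1 minus Pearson's r over tested probe sets) was 0.0971 between genotypes and 0.106 within them, a difference of -0.00852 (one-sided exact permutation test over 70 labelings, p = 0.83, smallest possible p 0.0286). The 3 highest correlations joined mice of different genotype and the same sex: 0.944 for plakoglobin (+/-) mouse 1 and wildtype mouse 1, 0.937 for plakoglobin (+/-) mouse 2 and wildtype mouse 3, and 0.933 for the mice numbered 4. The first of these pairs is formed by the 2 males of high GAPDH ratio. For sex the difference in distance was 0.0117 (p = 0.171 by the same exact permutation test).

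Jup itself was read by 1 probe set (1426873_s_at). Its signals were 2928.3, 3206.9, 3995.5 and 4322 in wildtype mice 1 to 4 and 1991.7, 3519.9, 2229.7 and 2362.8 in plakoglobin (+/-) mice 1 to 4. Of the plakoglobin (+/-) animals, 3 lay below all wildtype mice, while plakoglobin (+/-) mouse 2 lay inside the wildtype range. The log2 difference was -0.53 (SE 0.24, 95% interval -1.06 to -0.0039), a ratio of geometric means of 0.691. It did not pass: the limma adjusted p was 1 at an unadjusted p of 0.0486. The two-sided exact permutation test gave p = 0.0857 over 70 labelings, and p = 0.111 over the 36 labelings made within sex. Without the 3 high-ratio arrays the difference was -0.60, and with 1 mouse left out in turn it ranged from -0.73 to -0.40. In males it was -0.37 and in females -0.70. Between the untrained mice the order was turned, with a difference of 0.40 and no replicate. Where this probe set lies relative to the disrupted sequence is not stated in the labels, so the genotype labels are taken as given.

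No gene passed the test for a difference between genotypes in trained mice. Of 13576 probe sets 0% were called at a limma adjusted p under 0.05, with a lowest adjusted p of 1. At an unadjusted p under 0.05 stood 2.11% of the 8390 genes, which were 177 genes, 100 of them higher and 77 lower in plakoglobin (+/-) mice. Groups that did not overlap were seen in 1.66% of genes, in 72 with every plakoglobin (+/-) mouse above all wildtype mice and in 67 with every one below. The median size of a gene's difference was 0.15 against a median SE of 0.25, and 70 genes differed by more than 1. Over all genes 51.2% were higher in plakoglobin (+/-) mice, with a median difference of 0.01.

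An interval shows how large a difference these 8 arrays leave room for. The 95% interval from limma reached 0.56 to either side of the estimate in the median gene, and 0.40 to 0.95 in the middle 80% of genes. For 6453 of 8390 genes (76.9%) it lay wholly within 1 of 0 on the log2 scale, that is within a doubling or halving. For 7859 genes (93.7%) it lay within 1.5 of 0, and for 1073 genes (12.8%) within 0.5.

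The same fit did call differences between sexes. It called 0.0737% of probe sets, which were 10, of which 9 were higher in males. The probe set lower in males was that of Xist, the RNA that silences an X chromosome, which read 10044.7 to 17586.2 in the 4 females and 1158.1 to 1699.7 in the 4 males. The Y-linked Eif2s3y, too dim in females to be tested, read 1824.7 to 4648.5 in males and 15.5 to 205 in females, so both genes matched the labelled sex on all 8 arrays. The Y-linked Kdm5d and Uty, also too dim to be tested, overlapped between the sexes. Kdm5d read 273.5 to 1141.1 in males and 501.6 to 829.1 in females, and Uty 237 to 1021.1 and 331 to 786.6. The genotype difference was not shown to differ between sexes. For it the limma interaction term called 0% of probe sets at an adjusted p under 0.05. At an unadjusted p under 0.05 stood 366 probe sets, 2.7% of the 13576 tested.

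Genes of lowest p are described next as candidates for size only, since none passed (limma adjusted p = 1 for each). Highest in plakoglobin (+/-) mice by this order was Prelid3a, a relative of proteins that move phospholipids within mitochondria. Its signals were 2029.2, 1325.2, 1073.1 and 387.5 in wildtype mice 1 to 4 and 2722.3, 3110.8, 3487.9 and 3783 in plakoglobin (+/-) mice 1 to 4. Every plakoglobin (+/-) mouse lay above every wildtype mouse, and the log2 difference was 1.66 (SE 0.43, 95% interval 0.71 to 2.62). Leaving out the 3 high-ratio arrays gave 2.50, the highest wildtype values being on 2 of them.

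U2af2, a splicing factor that binds the end of introns, differed by 1.16 (SE 0.32), with 2606.8 to 6302.7 in wildtype and 5166.1 to 11678.8 in plakoglobin (+/-) mice, which overlap. Sncb, which encodes beta-synuclein, read 1939.7, 2307.3, 3052.3 and 2313.3 in wildtype and 4009.5, 4808, 3718.9 and 3377.4 in plakoglobin (+/-) mice, without overlap and with a difference of 0.73 (SE 0.20). Camk4, a calcium/calmodulin-dependent kinase, differed by 0.96 (SE 0.27) and also did not overlap, with 679.1 to 940.6 against 1211.1 to 2052.7. The serine protease gene Prss12 (0.96, SE 0.29) and the tetraspanin gene Tspan9 (0.51, SE 0.16) did not overlap either. Signals of Myo10, an unconventional myosin of filopodia, overlapped between the groups (1.17, SE 0.36), as did those of Reep3 (0.54, SE 0.17), Gpaa1 (0.60, SE 0.19) and Pex16 (0.78, SE 0.25). Reep3 belongs to a family that shapes the endoplasmic reticulum, Gpaa1 is part of the enzyme that attaches GPI anchors, and Pex16 takes part in the assembly of peroxisomes.

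Of the genes lower in plakoglobin (+/-) mice, Atp5md, a small subunit of the mitochondrial ATP synthase, had the lowest p. It read 26709.5, 102479.7, 51810.9 and 87198.1 in wildtype and 19929.9, 25146.1, 43853.3 and 41364.5 in plakoglobin (+/-) mice, and the difference was -0.94 (SE 0.22, 95% interval -1.42 to -0.46). Values within each genotype spread more than 2-fold, and in both genotypes the males read lower on average than the females.

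Mybbp1a, a nucleolar protein that binds the transcription factor MYB, read 6973.3, 7331.9, 5690.6 and 5408.7 in wildtype and 3377.4, 3261.3, 4049.9 and 4380.5 in plakoglobin (+/-) mice. The groups did not overlap, and the difference was -0.75 (SE 0.18). Alpk3, an alpha-kinase family gene in which mutations cause cardiomyopathy, read 5159.6, 5073.1, 3708.4 and 3958.5 against 2817.8, 2875.3, 2857.3 and 2772.8, again without overlap (-0.65, SE 0.18). The 2 highest wildtype values of both genes were on the high-ratio arrays, and without the 3 arrays the differences were -0.55 for Mybbp1a and -0.44 for Alpk3. The part of array quality in these differences was not tested further.

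The phospholipid transfer protein Pltp (-0.72, SE 0.22), the splicing factor Puf60 (-0.53, SE 0.18) and the pre-T-cell receptor gene Ptcra (-1.49, SE 0.48) were also lower in every plakoglobin (+/-) mouse than in any wildtype mouse. Dmpk, the kinase gene whose untranslated repeat is expanded in myotonic dystrophy, read 14215.1 to 31063.8 in wildtype and 7807.3 to 12071 in plakoglobin (+/-) mice (-0.81, SE 0.27). Without the 3 high-ratio arrays its difference was -0.52, and without wildtype mouse 2, whose 31063.8 was its highest signal, it was also -0.52. Lhpp, a phosphatase gene, differed by -1.31 (SE 0.44), and without plakoglobin (+/-) mouse 2, at 216.5, by -0.87. The microtubule protein Mapt (-0.60, SE 0.20) and the RNA-binding protein Khdrbs1 (-0.72, SE 0.24) overlapped between the groups.

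These 20 genes, 10 per direction, were taken by p, so their sizes are among the largest by construction. Of the 20, 11 did not overlap between the groups, against 1.66% of all genes, and taking genes by p favours such separation. Leaving out 1 mouse moved 2 of the 20, Dmpk and Lhpp, by more than 1.5 times. Between the 2 untrained mice, which share no array with this comparison, 12 of the 20 had the same sign. Across all 8390 genes 49.4% had the same sign in the trained and untrained comparisons, with r = 0.03 across genes, which are not independent replicates. Further probe sets of these genes are taken up with the other genes that have several.

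**Figure D2:**
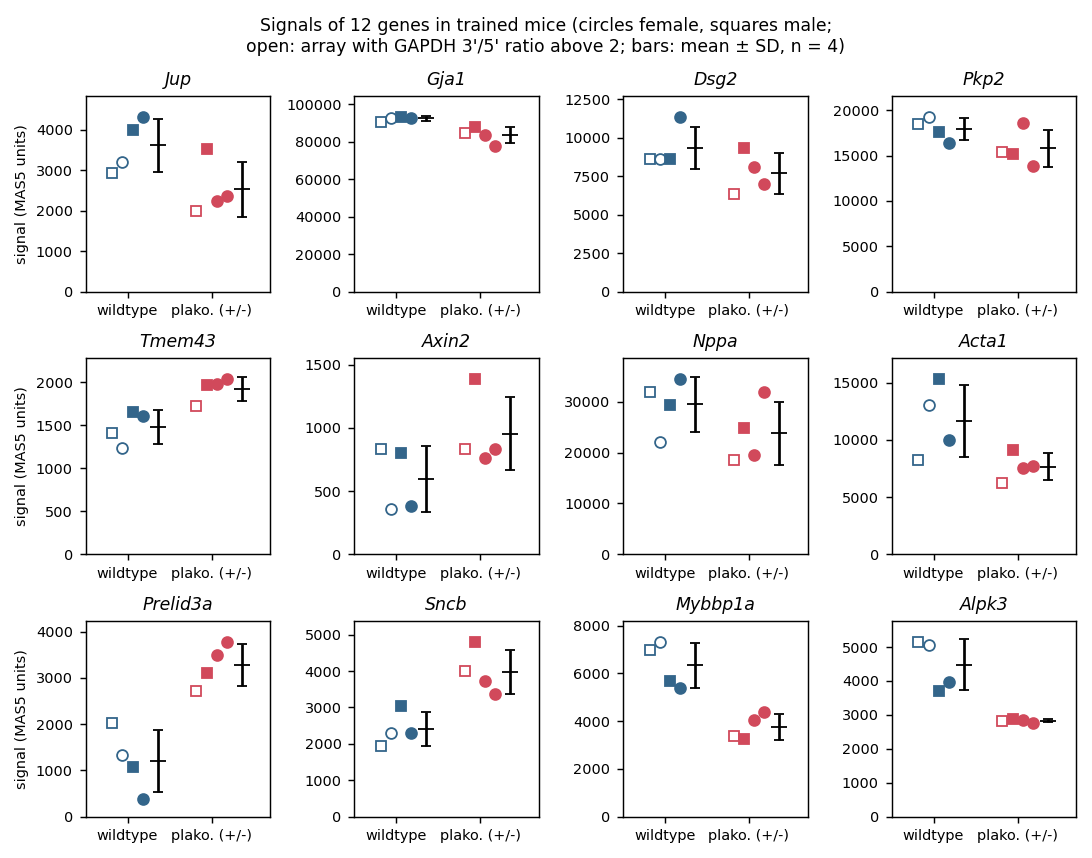
Signals of 12 genes on the 8 trained arrays (linear axes from 0), wildtype in blue and plakoglobin (+/-) in red, with open symbols for the 3 high-ratio arrays and bars for the mean ± SD (n = 4). Groups do not overlap for Gja1, Tmem43, Prelid3a, Sncb, Mybbp1a and Alpk3, and they overlap for Jup, Dsg2, Pkp2, Axin2, Nppa and Acta1.

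Lists of genes were then read by their counts and medians beside the 51.2% of all genes that were higher. They held 434 genes in 33 lists, 20 of pathways and 13 of cell type or sex-linked markers, and 322 genes were tested. None of the 322 passed, where the background was 0% of probe sets. At an unadjusted p under 0.05 stood 6 of the 322, against 2.11% of all genes: Jup, the skeletal actin gene Acta1, the carnitine palmitoyltransferase gene Cpt1a, the mitotic kinase gene Plk1, the catalase gene Cat and the VEGF receptor gene Flt1.

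Desmosome genes were the first group. They form the spot contacts that anchor intermediate filaments at the disc, and 6 of 8 tested were lower in plakoglobin (+/-) mice, Jup among them, with a median of -0.16. The desmosomal cadherin Dsg2 read 8648.5, 8652.6, 8649 and 11383.9 in wildtype and 6347.3, 9332, 8091.9 and 6976.8 in plakoglobin (+/-) mice. These ranges overlapped, and the difference was -0.28 (SE 0.19, 95% interval -0.70 to 0.13). Dsp, the desmoplakin gene that ties the plaque to desmin filaments, differed by -0.15 (SE 0.15, 95% interval -0.50 to 0.19). The plakophilin gene Pkp2, mutated most often in the human disease, differed by -0.19 (SE 0.15, 95% interval -0.53 to 0.15). Dsc2, the partner cadherin of Dsg2, lay the other way at 0.37 (SE 0.21, 95% interval -0.11 to 0.84). For the representing probe sets of Dsp, Pkp2, Dsg2 and Dsc2 the interval left no room for a doubling or halving. A further probe set of Dsc2 differed by 1.21 (SE 0.63), with an interval of -0.20 to 2.62 that did.

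Adherens junction, connexin and other disc genes were lower in 13 of 14 cases, with a median of -0.10. That count was 9 without the 3 high-ratio arrays, 9 to 12 with 1 mouse left out in turn, and 11 after quantile or cyclic loess normalization. Gja1, the gap junction protein connexin 43 that passes current between myocytes, read 90672.6, 92607, 93284.1 and 92596.2 in wildtype and 84413.2, 87867.2, 83502.6 and 77478.4 in plakoglobin (+/-) mice. All 4 plakoglobin (+/-) mice were below the wildtype range, which is narrow, but the difference was small: -0.15 (SE 0.11, 95% interval -0.40 to 0.11), and -0.05 after quantile normalization. Gja1 was the only 1 of the 14 without overlap, where 1.66% of all genes did not overlap. Of the 5 further probe sets of Gja1, with differences of -0.31, 0.28, -0.43, -0.26 and 0.01, none separated the groups. That at 0.28, 1415801_at, was low on the 3 high-ratio arrays and differed by 0.50 (SE 0.15) without them.

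Ctnnb1, the gene for beta-catenin, read 34470.8, 35570.4, 27314.1 and 21303.1 in wildtype and 24521, 27148.9, 21360.3 and 23711.9 in plakoglobin (+/-) mice. The 2 high wildtype values were those of the high-ratio arrays: the difference of -0.27 (SE 0.18, 95% interval -0.68 to 0.14) turned to 0.04 without the 3 arrays. The disc cadherin Cdh2 differed by -0.09 (SE 0.17), Cdh5, the cadherin of endothelium, by -0.40 (SE 0.27), and the connexin gene Gjc1 by -0.31 (SE 0.21). Without wildtype mouse 2 the differences were -0.16 for Cdh5 and -0.14 for Gjc1. In females Cdh5 differed by -0.92 and in males by 0.11, and no interaction was called.

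Other genes of inherited arrhythmogenic or dilated cardiomyopathy divided 5 higher to 6 lower, with a median of -0.03, and 3 to 8 (-0.12) without the 3 high-ratio arrays. Tmem43, a nuclear envelope protein, was the only 1 of the 11 without overlap, where 1.66% of all genes did not overlap. It read 1406.7, 1234.7, 1659.2 and 1613.2 in wildtype and 1725.7, 1967.2, 1976.7 and 2038.2 in plakoglobin (+/-) mice, a difference of 0.39 (SE 0.20, 95% interval -0.06 to 0.84). Its further probe set differed by 1.11 (SE 0.54) and overlapped. Tgfb3, a growth factor gene that drives fibrosis, was widely spread, at 913.6 to 1495.7 in wildtype and 150 to 2453.3 in plakoglobin (+/-) mice (-0.78, SE 0.56). Without plakoglobin (+/-) mouse 3, which read 150, its difference was -0.18. The calcium release channel Ryr2 (-0.12, SE 0.21) and phospholamban, the brake of the calcium pump, encoded by Pln (-0.03, SE 0.13; 0.02 after quantile and 0.08 after cyclic loess normalization), differed little.

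**Figure D3:**
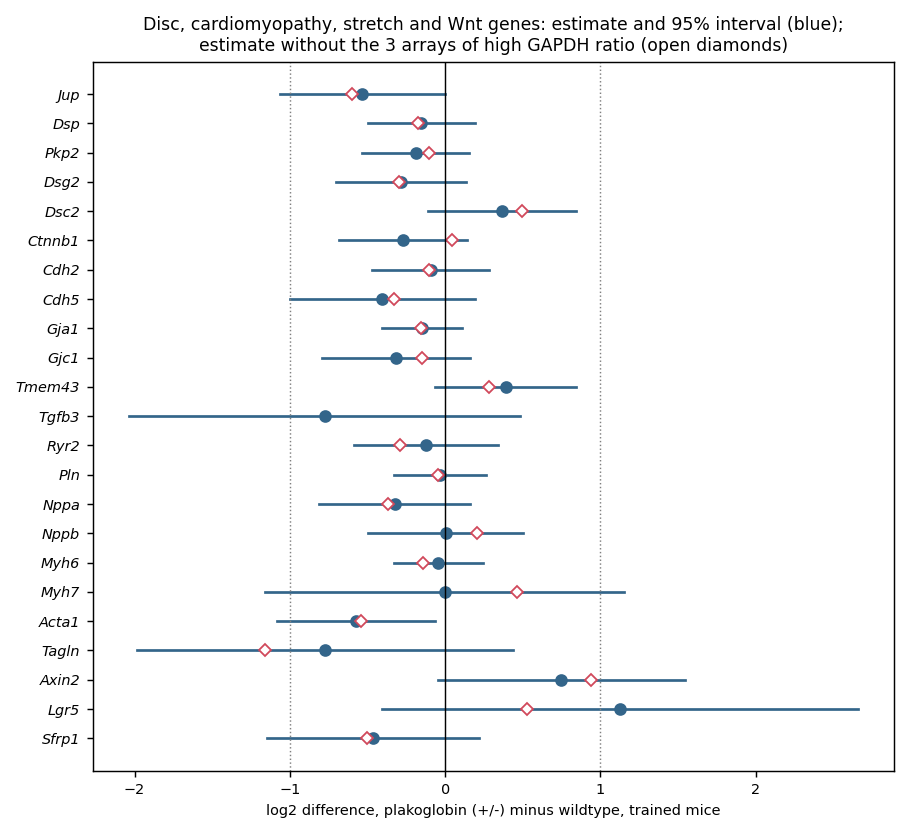
Log2 difference (plakoglobin (+/-) minus wildtype, trained mice) of disc, cardiomyopathy, wall stress and Wnt genes, with the 95% interval from limma (blue, n = 4 against 4) and the estimate without the 3 high-ratio arrays (open diamonds; Tgfb3 has none, being under the filter there). Dotted lines mark a doubling and a halving. Intervals of Jup and Acta1 end below 0, that of Jup at -0.0039, and no gene drawn passed after adjustment.

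Wnt targets and modulators were of interest because plakoglobin and beta-catenin share binding partners. Of 8 tested genes 5 were higher in plakoglobin (+/-) mice, with a median of 0.26, and 0 were past the test. Without the 3 high-ratio arrays it was 4 of 8, with a median of 0.02, and the median was 0.06 without wildtype mouse 2 and 0.06 without plakoglobin (+/-) mouse 2. Axin2, a feedback inhibitor that beta-catenin induces, read 836.1, 360.5, 803.1 and 383.5 in wildtype and 835.6, 1387.1, 764.1 and 830.1 in plakoglobin (+/-) mice. Both wildtype females were low, the wildtype males lay among the plakoglobin (+/-) mice, and plakoglobin (+/-) mouse 2 was high. The difference was 0.75 (SE 0.36, 95% interval -0.05 to 1.54), and 0.94 without the 3 high-ratio arrays. Lgr5, a receptor for R-spondins, read 1590.7, 108.5, 828.1 and 1191.1 in wildtype and 1248.2, 1540.7, 1336.1 and 1502.7 in plakoglobin (+/-) mice. Its difference of 1.13 (SE 0.69) was 0.26 without wildtype mouse 2, the low value. Sfrp1, a secreted Wnt antagonist, differed by -0.47 (SE 0.30), and its further probe set by -0.05 (SE 0.33).

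Hypertrophy and fetal genes mark a stretched or loaded ventricle, and 10 of 14 were lower, with a median of -0.08; after quantile or cyclic loess normalization 7 of 14 were lower. Acta1, skeletal alpha-actin, which the loaded heart re-expresses, read 8209.4, 13004.1, 15302.2 and 9997.7 in wildtype and 6242.8, 9107, 7569.8 and 7686.9 in plakoglobin (+/-) mice. Only wildtype mouse 1 lay within the plakoglobin (+/-) range, and the difference was -0.58 (SE 0.23, 95% interval -1.08 to -0.07; limma adjusted p = 1). Nppa, the gene of atrial natriuretic peptide, read 31919.1, 22146.2, 29441.8 and 34500.7 against 18636.2, 24965.1, 19561.1 and 32030.4. These overlapped, and the interval of its difference was -0.81 to 0.16.

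The B-type natriuretic peptide gene Nppb differed by 0.0021 (SE 0.22, 95% interval -0.49 to 0.50). Myh6, the fast myosin heavy chain of the adult mouse heart, differed by -0.04 (SE 0.13, 95% interval -0.33 to 0.24) as deposited, and by 0.04 and 0.07 after quantile and cyclic loess normalization. For Myh7, the slow fetal myosin, plakoglobin (+/-) mouse 4 read 31249.3 while the other 7 mice read 4795.5 to 11876, and without that mouse the difference went from -0.0042 to -0.65. The smooth muscle gene Tagln, re-expressed under load, differed by -0.77 (SE 0.54), and without plakoglobin (+/-) mouse 3, at 218, by -0.16.

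Genes of the contractile apparatus and of energy supply are among the brightest on the array, and how many of them were lower depended on the scaling. Sarcomere genes were lower in 12 of 15 cases (median -0.10), but in 8 of 15 after quantile or cyclic loess normalization. Tpm1, a tropomyosin gene, differed by -0.23 (SE 0.12), the troponin T gene Tnnt2 by -0.20 (SE 0.12) and the light chain gene Myl3 by -0.20 (SE 0.12). Oxidative phosphorylation genes were lower in 21 of 29 cases (median -0.07), in 14 after quantile and in 10 after cyclic loess normalization. Members of this list were Sdhc, a subunit of succinate dehydrogenase (-0.38, SE 0.24), and Cyc1, cytochrome c1 (-0.23, SE 0.13). Sdhc was at -0.11 without plakoglobin (+/-) mouse 3, and its further probe set at -0.06. Glycolysis genes were lower in 11 of 15 cases (median -0.05), and in 6 and 4 after those normalizations. In this list the hexokinase gene Hk1 differed by -0.46 (SE 0.22) and the glucose transporter gene Slc2a1 by -0.42 (SE 0.24). Cytosolic ribosome genes were lower in 9 of 11 cases (median -0.06), and in 4 after either normalization.

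The same dependence held across all genes. Sorted by mean signal into 5 bins of 1678 genes, from dimmest to brightest, 56.8%, 56%, 53.1%, 48.6% and 41.7% were higher in plakoglobin (+/-) mice as deposited. After quantile normalization these shares were 48.9%, 47.5%, 47.4%, 48.2% and 50.6%, and after cyclic loess normalization 48.3%, 48.2%, 48.5%, 48.5% and 53.8%. Without the 3 high-ratio arrays the deposited values gave 54.9% in the dimmest and 43% in the brightest bin. Of the 20 pathway lists 15 had a median below 0 as deposited, 9 after quantile and 10 after cyclic loess normalization, so small shifts of several bright lists have no settled direction here.

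Fatty acid oxidation, the main fuel pathway of the heart, divided 10 higher to 11 lower with a median of -0.01. Cpt1a, which loads fatty acids for entry into mitochondria, read 1367.7, 2153.8, 2718.8 and 1315.7 in wildtype and 2245.8, 3062.3, 3299.4 and 2872.3 in plakoglobin (+/-) mice. The ranges overlapped, and the difference was 0.66 (SE 0.28). The next step, the carnitine carrier gene Slc25a20, lay the other way at -0.54 (SE 0.27), with 0.04 for its further probe set, and Mlycd, which removes the inhibitor malonyl-CoA, was at -0.39 (SE 0.20). Adipogenesis genes were lower in 7 of 10 cases (median -0.12), Klf15 by -0.48 (SE 0.31) and with overlap. The adipocyte hormone Adipoq was too dim to be tested in both genotypes, at 57.5 to 385.5 in wildtype and 39.5 to 714.6 in plakoglobin (+/-) mice.

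Fibrosis and matrix genes were lower in 14 of 22 cases (median -0.10), in 11 without the 3 high-ratio arrays and in 10 without wildtype mouse 3. The receptor gene Tgfbr1 differed by -0.46 (SE 0.24), and Ccn2, connective tissue growth factor, by -0.48 (SE 0.36). For Ccn2 the 2 males of high GAPDH ratio read highest of all, 35171.9 in wildtype mouse 1 and 42544.6 in plakoglobin (+/-) mouse 1, against 9336 to 21339.6 in the other 6 mice. Without plakoglobin (+/-) mouse 2 its difference was -0.19.

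Calcium handling genes were higher in 9 of 13 cases (median 0.10), in 7 (0.03) without the 3 high-ratio arrays and in 6 without wildtype mouse 2. Among them Cacna2d1, an accessory subunit of the L-type calcium channel, differed by 0.61 (SE 0.42), by 0.34 without plakoglobin (+/-) mouse 2 and by 1.004 without plakoglobin (+/-) mouse 1. Its further probe set differed by 0.20 (SE 0.50). Potassium, sodium and pacemaker channel genes divided 4 higher to 6 lower (median -0.01), and 3 to 7 (-0.11) on the 5 arrays of low ratio. In that list Kcnh2, which carries the rapid delayed rectifier current, differed by 0.55 (SE 0.36), and by 0.11 without wildtype mouse 2, which read 1641.2 against 4206 to 6069.2 in the other 7 mice. Exercise growth genes divided 8 to 9 (median -0.04). Cited4, a transcription cofactor raised by endurance exercise, differed by 0.65 (SE 0.47) by 0.10 without wildtype mouse 2 and by -0.31 without the 3 high-ratio arrays. Clock genes divided 4 to 6 (median -0.05), and 6 to 4 (0.02) on the 5 arrays of low ratio.

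Heat shock and endoplasmic reticulum (ER) stress genes were higher in 9 of 14 cases (median 0.09), in 6 without plakoglobin (+/-) mouse 1 and in 5 without wildtype mouse 3. Hspa5, the main ER chaperone, differed by 0.36 (SE 0.26) on its representing probe set, with overlap, and by 0.16 without plakoglobin (+/-) mouse 1. Its further probe set, 1427464_s_at, read 20565.8, 22184.2, 18970.2 and 17390.6 in wildtype and 24370.4, 28749.5, 27586.5 and 30228.2 in plakoglobin (+/-) mice. There the groups did not overlap, and the difference was 0.49 (SE 0.15, 95% interval 0.16 to 0.82; limma adjusted p = 1). Both probe sets thus lay in 1 direction, at different precision. Xbp1, a transcription factor of the same response, differed by 0.42 (SE 0.23), by 0.90 in females and by -0.07 in males. Its further probe sets differed by -0.02 (SE 0.20), 0.32 (SE 0.32) and 0.27 (SE 0.18).

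Antioxidant genes were lower in 11 of 14 cases (median -0.10). That count was 10 (-0.02) after quantile and 8 (-0.03) after cyclic loess normalization, and 8 to 12 with 1 mouse left out in turn. Cat, the catalase that splits hydrogen peroxide, differed by -0.36 (SE 0.15) on its representing probe set, with 11034.7 to 14887.8 in wildtype and 8911.1 to 11735.3 in plakoglobin (+/-) mice. A further probe set of Cat, at 0.37 (SE 0.25), lay the other way. Cell cycle genes, mostly too dim to test, were higher in 5 of 7 cases (median 0.09). That count was 3 (-0.12) without the 3 high-ratio arrays, 2 without wildtype mouse 2 and 3 without plakoglobin (+/-) mouse 3. Plk1 differed by 0.80 (SE 0.33) at 387.5 to 833.1 in wildtype and 693.1 to 1383.2 in plakoglobin (+/-) mice.

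Immediate early genes, which respond within minutes to many stimuli, divided 8 to 7 (median 0.02), but 4 to 11 (-0.25) without the 3 high-ratio arrays, and the median ran from -0.28 to 0.22 with 1 mouse left out. Fos read 43868.9, 421.6, 8947 and 665.6 in wildtype and 53322.9, 8640.9, 145 and 342 in plakoglobin (+/-) mice. All 4 males were above all 4 females, in both genotypes, and the 2 males of high GAPDH ratio were highest. Its genotype difference was -0.57 (SE 0.66), and -0.18 without plakoglobin (+/-) mouse 2. Junb differed by 0.46 (SE 0.66) and by -0.74 without the 3 arrays.

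The direction of many list medians rested on single arrays. Of the 20 pathway lists 10 had a median that changed side of 0 when 1 mouse was left out, and 3 did so without the 3 high-ratio arrays. The 9 that did neither were the desmosome, adherens junction and disc, Wnt, hypertrophy, sarcomere, oxidative phosphorylation, ribosome, adipogenesis and antioxidant lists. Of these, the oxidative phosphorylation and ribosome medians lay above 0 after quantile and cyclic loess normalization. The rest kept their side of 0, but 3 of their medians came near it. The sarcomere median was at -0.03 and -0.02, the hypertrophy median at -0.03 and -0.03, and the antioxidant median at -0.02 and -0.03.

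**Figure D4:**
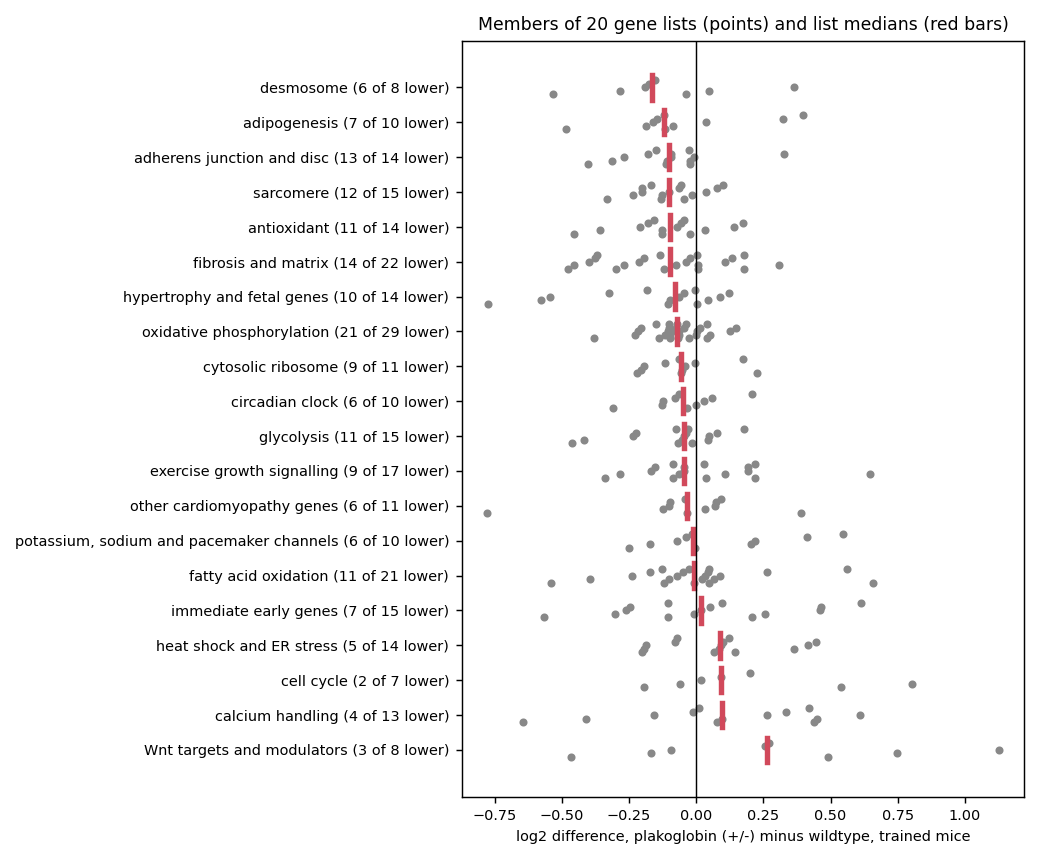
Log2 difference (plakoglobin (+/-) minus wildtype, trained mice) of each tested gene of the 20 pathway lists (grey points, spread vertically for clarity), with the list median in red. List medians run from -0.16 for the desmosome to 0.26 for Wnt targets and modulators, against 0.01 over all genes, and no point passed the test. The Wnt median was 0.02 without the 3 high-ratio arrays. For the bright oxidative phosphorylation, glycolysis and ribosome lists the majority below 0 is lost under quantile and cyclic loess normalization. The sarcomere list keeps 8 of 15 genes below 0 under either.

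Markers of the tissue and of its neighbours were set out beside these lists. Cardiomyocyte markers, 10 of 10 tested, summed to 1781910 to 2216360 in wildtype and 1728390 to 2056620 in plakoglobin (+/-) mice and 9 were lower (median -0.11). After quantile normalization 6 of 10 were lower and after cyclic loess 5 of 10. Atrial markers were lower in 4 of 6 cases (median -0.13), Nppa among them, and summed to 62254.5 to 68786.3 in wildtype and 48246.2 to 66086.3 in plakoglobin (+/-) mice. The defining atrial genes Sln and Myl7 were too dim to be tested, at no more than 700.1 and 729.1 on any trained array. Endothelium markers were higher in 8 of 10 cases (median 0.05) and summed to 38313.9 to 43886.1 against 39990.8 to 49821.8. Flt1, a receptor for VEGF, had the largest difference at 0.54 (SE 0.22), with 2874.9 to 6284.2 in wildtype and 5801.7 to 7165.3 in plakoglobin (+/-) mice, and its further probe sets differed by 0.10 and 0.41. Without wildtype mouse 2 it was at 0.35.

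Leukocyte markers were higher in 7 of 11 cases (median 0.10) and summed to 31980.9 to 55537.6 in wildtype and 38172.1 to 50169.8 in plakoglobin (+/-) mice. Of the 11, 5 were higher without the 3 high-ratio arrays and 4 without wildtype mouse 2. Fibroblast markers were lower in 5 of 8 cases (median -0.08), in 3 without the high-ratio arrays, and smooth muscle and pericyte markers lower in 5 of 7 (median -0.13). Skeletal muscle markers were lower in 3 of 3 tested (median -0.18), Acta1 being 1 of them, and 6 more were too dim to be tested. Few markers of blood, fat, lung, pericardium and nerve were bright enough: 1 erythroid gene at 0.93, 2 adipocyte genes with a median of 0.31, 2 lung genes with a median of 0.44, 1 mesothelium gene at -0.32 and 2 Schwann cell or neuronal genes with a median of -0.34. Without wildtype mouse 2 the erythroid gene was at 0.13, the adipocyte median at 0.12 and the mesothelium gene at -0.01, and without the 3 high-ratio arrays they were at 0.24, 0.24 and 0.16. In bulk RNA fewer cells of a type and less RNA per cell cannot be told apart, and the part of such cells in the differences above was not tested.

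Genes with several probe sets gave a second reading of the genotype difference within the same 8 arrays. For 2790 genes with at least 2 tested probe sets, the differences of the brightest and the second brightest correlated weakly, at r = 0.11 across genes and 0.07 without the 3 high-ratio arrays. For the difference between sexes the same r was 0.28. The sign was the same for 54.8% of these genes, and for 56.2% (r = 0.19) of the 1197 genes with both probe sets above the median signal. All these readings share their RNA and arrays, so they are a description and not independent tests. Of 54 genes whose brightest probe set had an unadjusted p under 0.05, the second had the same sign in 32 (59.3%) and was also under 0.05 in 3.

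Among the 20 genes of lowest p, 7 had further tested probe sets, 11 in all, and 6 of these 11 had the sign of the representing one. The further probe set of Mybbp1a differed by -0.01 against -0.75, and that of Myo10 by -0.01 against 1.17. The 4 further probe sets of Khdrbs1 differed by 0.02, 0.25, -0.11 and -0.09 against -0.72. In each of these genes the large value came from 1 probe set only. For Gpaa1 the further probe set differed by 0.03 against 0.60, for Mapt by 0.32 against -0.60 and for Pltp by -0.22 against -0.72. The 2 of Reep3 differed by 0.16 and -0.12 against 0.54.

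The 5 genes whose probe sets lay farthest apart were Ppp2r5c (4 probe sets spanning 2.68), Sox4 (5, 2.05), Rbm39 (4, 1.99), Pdxdc1 (4, 1.93) and Clip4 (6, 1.90). Pdxdc1 held the clearest case: its dim probe set 1419327_at read 520.1, 178, 684.6 and 557.6 in wildtype and 1107.1, 1492.7, 1560.7 and 1734.7 in plakoglobin (+/-) mice, without overlap (1.75, SE 0.45). The representing probe set of the same gene differed by -0.18 (SE 0.22), and the others by 0.12 and 0.34. For Ppp2r5c, a regulatory subunit of protein phosphatase 2A, differences ran from -1.51 (SE 0.78) to 1.17 (SE 0.93), and for the transcription factor gene Sox4 from -0.83 (SE 0.66) to 1.22 (SE 1.37). Rbm39, a splicing factor gene, ran from -0.84 to 1.15. In Clip4, 1429752_x_at differed by -1.13 (SE 0.39) while the representing probe set differed by -0.23.

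Some probe sets were low on the 3 high-ratio arrays alone. Dsp probe set 1427610_at read 454.6, 194, 13832.6 and 16921.1 in wildtype and 558.1, 16238.2, 13675 and 15818.9 in plakoglobin (+/-) mice. Only the 3 high-ratio arrays were low, 2 wildtype and 1 plakoglobin (+/-), and the difference was 1.64 (SE 1.58), against -0.02 without them. The brightest Dsp probe set read 40980.1 to 59566.8 on all 8 arrays. Myh6 gave the same picture: probe set 1417729_at read 375.5 to 1873.7 on those 3 arrays and 35474.8 to 44319.5 on the other 5, and its difference of 1.61 (SE 1.59) became -0.0024.

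Such probe sets were counted over the whole array. Of 13576 tested probe sets, 129 (0.95%) were lower on each of the 3 arrays than on any of the other 5, by a mean of at least 2 on the log2 scale, and 0 were higher by as much. Of the 129, 112 differed upward by genotype, with a median of 0.51 and a median SE of 0.85, where the median SE of all probe sets was 0.26. Since 2 of the 3 arrays were wildtype, this direction is largely set by the choice of probe sets. Over all tested probe sets 51.9% were higher in plakoglobin (+/-) mice. Without the 3 arrays the median of the 129 was 0.04. Among 102 genes that had such a probe set and a further one, 90 had a further one that changed by less than 0.5 between the same arrays. Only 16 of the 129 represented their gene, and 0 were among the 20 genes of lowest p.

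**Figure D5:**
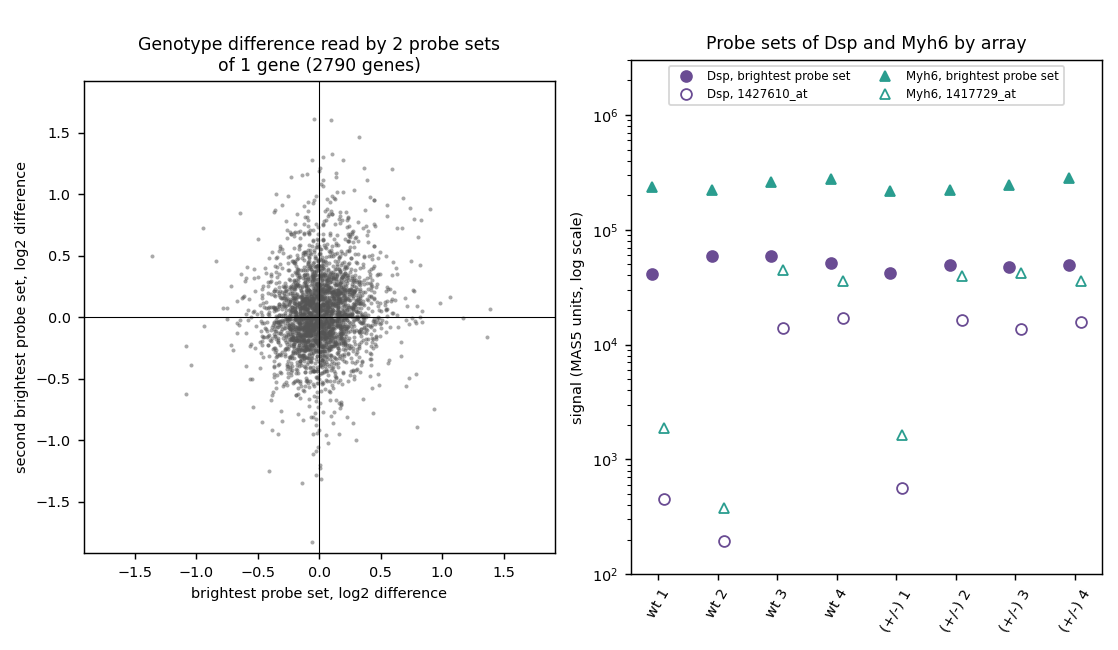
Left, log2 genotype difference of the second brightest against the brightest probe set of each of 2790 genes (r = 0.11 across genes). Right, signals (log scale) of 2 probe sets each of Dsp and Myh6 on the 8 arrays. The brightest probe sets are level on all arrays, while Dsp 1427610_at and Myh6 1417729_at are low on wildtype mice 1 and 2 and plakoglobin (+/-) mouse 1.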

How the data were processed

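Right ventricular RNA of 10 mice was measured, and the 8 trained mice were compared here. The authors deposited linear signals in the unit intensity, made with MAS5 5.0, per the submitters' processing notes, for 22690 probe sets on 1 array per mouse, without detection calls. Positions and sequences are not given, since the sources used here name no genome build.

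Signals under 104, the 10th percentile of the table, were set to 104 before the log2 transform, and no further scaling was applied. Left out were 64 control probe sets and those whose mean log2 signal was under the 40th percentile. Array annotation gave 1 symbol for 20380 probe sets, several for 691 and none for 1555. The brightest probe set with 1 symbol stood for its gene.

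Genotype and sex were fitted with limma 3.58.1 (lmFit, eBayes with trend) in R 4.3.3, two-sided, with Benjamini-Hochberg adjustment over 13576 probe sets, a threshold of 0.05 and 95% intervals. Their interaction was added in a further fit. The fit was checked on simulated data. Lists are described by counts and medians without a test. Named are the 10 genes of lowest p per direction and up to 3 members of each list by size of the test statistic. Also named are Jup, a fixed set of disc, stretch and sex-linked genes, and the 5 genes with probe sets farthest apart. Further probe sets are given for some of these genes. Other genes were named after their values were seen. Members and lists were chosen with earlier results of these data known.

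Alternatives changed the normalization (quantile, cyclic loess), the floor (none, using a pseudocount of 1, or the 25th percentile), the filter (none, or the 60th percentile), the eBayes options (untrended, or robust), the array weights and the model (sex left out, or all 10 arrays with a training term). Further fits used males or females only, the mean over all probe sets of a gene, only the 5 arrays whose GAPDH 3'/5' ratio was at most 2, that ratio as a covariate, and 7 of the 8 mice. A block of guessed pairs was added after the data were seen.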

Additional observations from a re-analysis of the deposited data

Results flagged for a closer look

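In 142 groups of 4 mice, made of 71 genes in each genotype, 10 had 1 mouse far from the other 3. The gap to the nearest other mouse, divided by the range of the group on the log2 scale, passed Dixon's limit, which chance passes in about 1 of 20 groups. In wildtype mice Camk4 read 679.1 in mouse 4 against 926.1 to 940.6, Dsg2 read 11383.9 in mouse 4 against 8648.5 to 8652.6, and Tnnt2 read 287211.4 in mouse 4 against 230760.7 to 238371.1. Gpaa1 read 11674.3 in wildtype mouse 1 against 6743.8 to 7319.8, and Cdh2 read 28408.5 in wildtype mouse 2 against 21328.4 to 22221.2.

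In plakoglobin (+/-) mice Prss12 read 1509.7 in mouse 3 against 2127.8 to 2256.8, and Sdhc read 10982.7 in the same mouse against 20800 to 23685.5. Myo10 read 1544.2 in plakoglobin (+/-) mouse 1 against 3051.9 to 3499.4, and Sox4 read 3417.9 there against 14185.7 to 16454.2. Axin2 read 1387.1 in plakoglobin (+/-) mouse 2 against 764.1 to 835.6. Of the 10 values, 4 lie on arrays of high GAPDH ratio.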

How the results depend on the processing

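The count of probe sets called by genotype, and of those called for the interaction, was 0 under every alternative run, and the lowest limma adjusted p of any named gene under any of them was 0.37. The difference of Jup kept its sign and its side of the threshold throughout, and the array distance stayed on its side of the threshold. The count called by sex, 10, was 2 without a filter and 2 with untrended eBayes, 16 without the high-ratio arrays and 16 with the GAPDH ratio as a covariate. With 1 mouse left out it ranged from 1 to 12. The labels do not name the littermate pairs. After the data were seen, 4 pairs, each of 1 sex, were guessed by joining title numbers that neighbour each other within that sex. Not all of these pairs are neighbours in the whole series. Fitted as a replicate block in place of sex, the pairs gave 0 called probe sets, Jup was at -0.53, and no named gene turned. Deviations from the genotype means correlated at 0.041 to 0.54 within these pairs, and 6 of the 8 mice correlated best with their guessed partner, against 3 of 8 once sex was taken out. Because the pairs were guessed with the data known and each is of 1 sex, these values are no test of which mice were littermates.

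Of the 72 named genes, 49 kept their direction under all settings that keep every mouse or choose arrays by quality or sex, 62 kept it with each mouse left out, and 42 moved by more than 1.5 times in at least 1 of those fits. Where the direction turned, the cause was not tested, and the value was as follows. Quantile normalization gave 0.036 for Myh6, 0.0023 for Myh7 and 0.025 for Pln, and cyclic loess gave 0.071, 0.022 and 0.078. Array weights gave -0.15 for Junb, 0.33 for Myh7 and 0.055 for Xist. All 10 arrays gave -0.18 for Gpaa1, 0.047 for Myh7 and 0.051 for Pln.

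The 5 arrays of low ratio gave -0.31 for Cited4, 0.042 for Ctnnb1, -0.74 for Junb, 0.47 for Myh7, 0.0040 for Ppp2r5c, 0.024 for Rbm39, 0.067 for Sox4 and 0.0086 for Xist. With the ratio as a covariate Junb was at -0.0060, Ppp2r5c at 0.034, Ryr2 at 0.0058 and Xist at 0.023. The mean of all probe sets gave 0.0057 for Cat, 0.48 for Dsp, 0.78 for Myh6, 0.51 for Pdxdc1, 0.015 for Rbm39 and 0.016 for Ryr2. The means of Dsp and Myh6 include 1427610_at (1.64) and 1417729_at (1.61), which were low on the 3 high-ratio arrays. Without those arrays these probe sets differed by -0.02 and -0.0024.

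Males alone gave 0.11 for Cdh5, 0.12 for Fos, -0.27 for Nppb, 0.070 for Pdxdc1, 0.14 for Ryr2, 0.00082 for Sfrp1, 0.20 for Tagln, 0.34 for Tgfb3 and -0.069 for Xbp1. Females alone gave 0.024 for Cdh2, 0.077 for Myh6, 0.52 for Myh7, 0.012 for Rbm39, 0.026 for Sox4 and 0.026 for Xist. With 1 mouse left out the ranges that cross 0 were -0.19 to 0.041 for Cdh2, -0.29 to 1.09 for Junb, -0.13 to 0.012 for Myh6, -0.65 to 0.43 for Myh7, -0.22 to 0.15 for Nppb, -0.10 to 0.048 for Pln, -0.15 to 0.025 for Ppp2r5c, -0.32 to 0.013 for Ryr2, -0.79 to 0.12 for Sox4 and -0.25 to 0.070 for Xist. The signals carry no detection calls, so the dimmest probe sets cannot be told from background.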

Other observations

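Sex was the one term of the fits to the 8 trained mice that had called probe sets, and most of the called genes respond early to stimuli. Fos (5.91, SE 0.66, higher in males), Egr1 (4.35, SE 0.48), Nr4a1 (3.25, SE 0.42), Dusp1 (2.72, SE 0.33), Zfp36 (2.62, SE 0.33), Sgk1 (2.30, SE 0.32) and Ier2 (2.25, SE 0.25) were past the limma test, with adjusted p from 0.0140 to 0.0477. Egr1 and Nr4a1 encode transcription factors, Dusp1 a phosphatase that ends MAP kinase signals, Zfp36 a protein that destabilises messenger RNA, and Sgk1 a kinase. A Jun probe set (2.04, SE 0.29) and 1426438_at (6.11, SE 0.28), which carries no single symbol here, were also higher in males. Of the 4 males, 2 had a high GAPDH ratio, as had 1 of the 4 females, and no time or order of dissection was given in the sources used here.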
